A study of Mus musculus with 8 samples.

Results

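The 47 genes described here encode the transport machinery of the primary cilium and the gate at its base. They were chosen by name, from known subunits of each complex but not all of them, and with earlier results of these data known. They were found in the deposited tables through their Entrez gene IDs, 47 of the 18631 genes listed. They comprise 10 subunits of the intraflagellar transport complex IFT-B, 6 subunits of IFT-A, 9 genes of the BBSome and its assembly chaperonins, 13 genes of the transition zone, 3 genes of the inversin compartment, 5 ciliary GTPases and cargo factors, and the centriole gene Ofd1. RNA was sequenced from a Pkd1 null and a Pkd1 heterozygous mouse kidney epithelial cell line, each given the CDK7 inhibitor THZ1 at 50 nM for 6 h or DMSO, its solvent. The 4 groups of 2 libraries are therefore null cells with THZ1, null cells with DMSO, heterozygous cells with THZ1 and heterozygous cells with DMSO. The lines are labelled null(PN), Pkd1-/-, and pkd1(PH), Pkd1+/-. All cells were grown in the same medium with 3% serum, insulin-transferrin-selenium, IFNγ and T3. Each genotype is 1 cell line, so an effect of losing Pkd1 cannot be told apart from anything else that sets the lines apart. Whether the 2 libraries of a group are separate cultures is not stated, so each p-value reflects only how far these libraries spread, which may be technical.

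The primary cilium is a sensory projection of the cell surface, built on a centriole, which most cells of the kidney tubule carry. IFT-B moves cargo towards its tip with kinesin motors, IFT-A moves it back with dynein and brings membrane proteins in, and the BBSome carries receptors out. The transition zone is a barrier at the base that decides which proteins pass. Polycystin-1, the product of Pkd1, works in this organelle together with polycystin-2, and loss of cilium proteins such as Ift88 also gives cystic kidneys in mice. THZ1 binds CDK7 covalently, a kinase of the general transcription factor TFIIH that phosphorylates RNA polymerase II.

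Many cilium genes are known targets of RFX transcription factors, which bind an imperfect palindrome called the X-box, and the promoters of the members were therefore read for this pattern. RefSeq promoter sequences (GRCm38.p6, from 250 bases before to 50 bases after the start of transcription) were held for 42 of the 47 members. The pattern searched on both strands was GTNNCC, any 2 bases, then GGNAAC, a spelling chosen after stricter ones had been tried on the same promoters. It occurred in 10 of the 42 promoters, 23.8%, against 1.49% of the 27025 genes with a promoter sequence and 2.04% of the 8689 of those genes that were tested below. With GTTNCC as the first part the count was 3 of 42 (7.1% against 0.53% of all genes), and with AT also fixed between the parts it was 0 of 42 (0.15% of all genes). The short word GTTGCC, which overlaps the first part, occurred in 18 of 42 promoters (42.9% against 14.14%). A match is a run of letters and not a measured binding site. The 10 matches are printed here because the X-box is the best known motif of cilium genes, 5′ to 3′ with the pattern in capitals and up to 8 bases on each side (the Tctn1 match ends at the edge of its window).
Ift57: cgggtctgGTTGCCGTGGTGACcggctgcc
Bbs1: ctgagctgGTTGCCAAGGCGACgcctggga
Bbs4: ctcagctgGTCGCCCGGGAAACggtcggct
Bbs7: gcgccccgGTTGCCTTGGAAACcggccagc
Tmem216: tgtacgcaGTTTCCATGGGGACtgaacatg
Tmem231: cgccgtcgGTTGCCGTGGAGACtcggcgct
Tctn1: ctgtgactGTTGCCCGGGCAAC
Tctn2: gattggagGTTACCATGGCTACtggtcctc
Mks1: gcgtctccGTTGCCAGGGGAACgaggcacc
Nphp4: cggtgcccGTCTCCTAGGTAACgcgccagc

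The matches came from 1 IFT-B gene (Ift57), 3 BBSome genes, 6 transition zone genes and no gene of IFT-A, the inversin compartment or the GTPase group. Positions are relative to the start of transcription set for each window, which counts as 0. The matches began at -87 in Ift57, 1 in Bbs1, 23 in Bbs4, -121 in Bbs7 and 19 in Tmem216. Those of the others began at 11 in Tmem231, 36 in Tctn1, -62 in Tctn2, -24 in Mks1 and -231 in Nphp4. The start set for a window can differ from the start of the whole gene. The Nphp4 match begins at base 152477911 of chromosome 4, inside the gene, which begins at 152476706. Whole windows are given for the 3 members with some of the deepest falls under THZ1 in null cells and for 2 of the members that rose there, so that the 2 kinds can be compared. Capitals mark the X-box pattern and GTTGCC.
Bbs1 (chr19:4906578-4906877, strand -): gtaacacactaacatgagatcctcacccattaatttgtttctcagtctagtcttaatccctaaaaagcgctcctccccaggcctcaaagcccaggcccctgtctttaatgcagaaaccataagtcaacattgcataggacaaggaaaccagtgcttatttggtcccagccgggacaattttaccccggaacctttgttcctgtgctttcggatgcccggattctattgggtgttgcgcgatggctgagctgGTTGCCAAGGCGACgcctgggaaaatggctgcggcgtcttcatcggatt
Bbs12 (chr3:37312304-37312603, strand +): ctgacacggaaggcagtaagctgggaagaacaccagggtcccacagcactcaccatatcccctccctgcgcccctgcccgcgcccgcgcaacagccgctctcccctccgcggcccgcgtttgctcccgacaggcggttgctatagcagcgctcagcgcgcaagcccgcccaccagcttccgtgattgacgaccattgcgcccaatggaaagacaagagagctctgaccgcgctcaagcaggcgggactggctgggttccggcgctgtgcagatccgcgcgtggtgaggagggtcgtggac
Invs (chr4:48279510-48279809, strand +): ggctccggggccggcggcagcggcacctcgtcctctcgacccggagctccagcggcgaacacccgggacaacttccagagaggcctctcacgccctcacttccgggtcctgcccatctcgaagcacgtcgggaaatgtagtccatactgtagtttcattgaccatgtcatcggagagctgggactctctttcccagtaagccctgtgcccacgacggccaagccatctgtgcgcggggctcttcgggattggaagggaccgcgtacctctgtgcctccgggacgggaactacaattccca
Tctn2 (chr5:124598499-124598798, strand +): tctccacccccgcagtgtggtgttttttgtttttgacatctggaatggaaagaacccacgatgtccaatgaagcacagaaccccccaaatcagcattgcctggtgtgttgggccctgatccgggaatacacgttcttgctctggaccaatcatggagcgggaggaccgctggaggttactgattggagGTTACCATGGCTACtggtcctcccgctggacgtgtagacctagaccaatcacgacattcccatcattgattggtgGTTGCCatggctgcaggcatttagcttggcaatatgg
Arl6 (chr16:59639360-59639659, strand -): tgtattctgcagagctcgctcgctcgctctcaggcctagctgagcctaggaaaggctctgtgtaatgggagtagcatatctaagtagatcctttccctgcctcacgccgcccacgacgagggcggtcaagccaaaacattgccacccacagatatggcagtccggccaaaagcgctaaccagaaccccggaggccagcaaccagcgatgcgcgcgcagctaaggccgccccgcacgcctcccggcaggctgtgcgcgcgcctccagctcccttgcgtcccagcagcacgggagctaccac

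Of these 5 windows, only those of Bbs1 and Tctn2 held a capitalised stretch, 14 bases in Bbs1, which fell, and 20 bases in Tctn2, which rose, whereas Bbs12, Invs and Arl6 held none. Their GC content was 50.3% in Bbs1, 66.7% in Bbs12, 63% in Invs, 52.3% in Tctn2 and 63% in Arl6.

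The deposited values are FPKM, fragments per length of transcript and per depth of the library, so levels can be compared between genes per length, and a loss of RNA common to the whole cell would not show. The steps between low values put the depth at about 17300000 to 18300000 fragments per library, and replicate libraries had Pearson's r of 0.9973 to 0.9983 across genes on the log2(FPKM + 1) scale. Pkd1 had 1.69 and 1.32 FPKM in null DMSO libraries, against 4.58 and 5.3 FPKM in heterozygous DMSO libraries (log2 difference -1.25 ± 0.10, SE, limma adjusted p = 1.99e-07), so it was lower in the null line as labelled but not at 0. Of 10 kidney tubule markers 8 averaged at least 1 FPKM (Cdh16, cadherin of the kidney tubule, had 175.73 to 313.64), whereas Epcam and Cdh1 reached at most 0.24 and 0.42. Multiciliated cell markers summed to 30.18 to 31.64 FPKM in null THZ1 libraries, 45 to 46.31 in null DMSO, 50.65 to 52.72 in heterozygous THZ1 and 57.57 to 59.58 in heterozygous DMSO. Most of that sum was Foxj1, and only 2 of the 12 averaged at least 1 FPKM, with the motile cilium dynein Dnah5 at 0 in all libraries. Fibroblast markers summed to 168.4 to 176.3 FPKM in null THZ1 and 141 to 143.5 in null DMSO, against 22.07 to 22.9 in heterozygous THZ1 and 22.75 to 24.41 in heterozygous DMSO, with 3 of 10 averaging at least 1 FPKM, mostly Acta2, and Pdgfra at most 0.14. The 6 endothelial markers summed to at most 0.23 FPKM. The 7 leukocyte markers summed to 7.93 to 8.26 in null THZ1, 8.45 to 9.39 in null DMSO, 10.83 to 12.25 in heterozygous THZ1 and 12.5 to 12.84 in heterozygous DMSO, with Adgre1 and Cd3e at 0 and Ptprc at most 0.27. That sum was mostly Csf1r and Cd68, which moved in opposite directions in null cells. Csf1r averaged 6.925 FPKM with DMSO and 3.695 with THZ1, and Cd68 1.905 and 4.38. In bulk RNA, fewer cells of a type and less RNA per cell cannot be told apart, and the part of these other markers in the results below was not tested.

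The members spanned a wide range of levels in heterozygous DMSO cells. Arl3, a GTPase that releases lipid-modified cargo inside the cilium, was highest at 82.92 FPKM on average, followed by the IFT-A subunit Ift43 at 50.44 and the transition zone gene B9d1 at 34.95. Bbs10, a chaperonin-like gene, was the lowest of the tested members at 2.985 FPKM. Mks1, a transition zone gene, was listed at 0 to 0.02 FPKM in all libraries and was the one member left out of the tests, which required a mean of at least 1 FPKM over the 8 libraries. The other 46 were tested among 10731 genes with limma on log2(FPKM + 1), and called means a Benjamini-Hochberg adjusted p under 0.05, taken over these genes together. Differences below are on that scale, which understates the changes of low genes, and their errors are SEs.

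**Figure D1:**
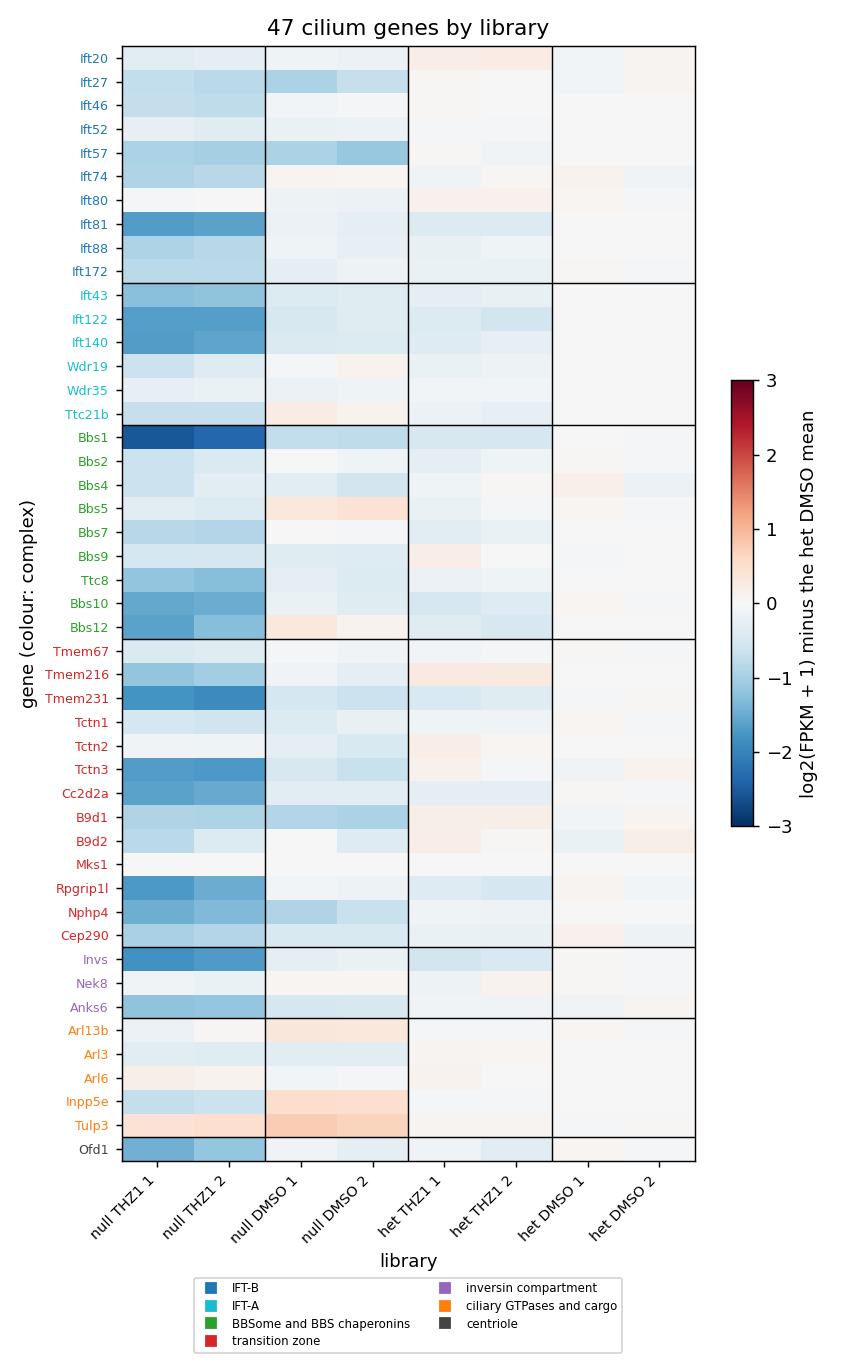
Level of each of the 47 members in each library (columns; null THZ1, null DMSO, heterozygous THZ1, heterozygous DMSO) as log2(FPKM + 1) minus the mean of the heterozygous DMSO libraries of that gene, with genes in rows and coloured by complex. The 2 null THZ1 libraries are the bluest columns across IFT-A, the BBSome genes and the transition zone, while Tulp3 is red in all 4 null libraries.

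The first comparison asked what THZ1 did to these genes in the null line. Of 46 tested members 36 fell and 3 rose, against 51.1% of all tested genes called lower and 24.6% called higher. The median difference was -0.63, against -0.17 over all tested genes. Of the falls 13 were by at least 1 on the log2 scale, against 8.48% of all tested genes, led by the BBSome subunit Bbs1 (-1.69), the chaperonin-like Bbs12 (-1.66), the inversin gene Invs (-1.53), the transition zone gene Rpgrip1l (-1.49) and the IFT-B subunit Ift81 (-1.42). The 3 that rose were the transition zone gene Tctn2 (0.24), the GTPase gene Arl6 (0.21) and the IFT-B subunit Ift80 (0.16). Because the median of all genes also moved, the split depends on how libraries are scaled: with median-of-ratios scaling, which put that median at 0.03, 29 members fell and 8 rose (36.7% and 40.7% of all genes), and with library totals 38 fell and 1 rose (57.1% and 19.1% of all genes). Under these scalings, the upper quartile and none, the members' median minus that of all genes was between -0.492 and -0.451. Without null DMSO library 2, which leaves 1 library in that group, the calls of Tctn2 and Ift80 were lost.

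The second comparison asked the same of the heterozygous line, where the responses were smaller. There 13 of the 46 members fell and 2 rose, against 10.3% of all tested genes called lower and 12.2% called higher. The median difference was -0.10, against 0.01 over all tested genes. The deepest falls were those of Invs (-0.50), Bbs1 (-0.50), the IFT-A subunit Ift122 (-0.48) and Bbs10 (-0.45), and the rises were those of the transition zone gene Tmem216 (0.27) and the IFT-B subunit Ift20 (0.21). Some of these calls, including both rises, were lost when 1 heterozygous library was left out. Such a fit leaves 1 library in a group, which makes any gene harder to call. The share of all tested genes called in it was not taken. With scaling to library totals 14 members were lower and 0 higher, against 13.9% and 7.02% of all genes.

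The third comparison set the lines against each other under DMSO. Of the 46 members 28 were lower and 4 higher in null cells, against 41% of all tested genes called lower and 29% called higher. The median difference was -0.21, against -0.07 over all tested genes. Ift57, an IFT-B subunit, was the farthest below its heterozygous level (-1.04), then B9d1 (-0.92), Ift27 (-0.82), Nphp4 (-0.79) and Bbs1 (-0.75). The 4 higher members were Tulp3 (0.72), Inpp5e (0.52), Bbs5 (0.38) and Arl13b (0.32). With median-of-ratios scaling 21 members were lower and 6 higher, against 34.4% and 34.6% of all tested genes. All 12 tested proliferation markers were also lower in null cells (median -1.01), and their part in the members' differences was not tested.

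The fourth comparison set the lines against each other under THZ1. Of the 46 members 42 were lower in null cells and 1, Tulp3, was higher, against 58.1% of all tested genes called lower and 25.1% called higher. The median difference was -0.73, against -0.28 over all tested genes, and 17 members were lower by at least 1 on the log2 scale, against 14.3% of all tested genes. With median-of-ratios scaling, which put the median of all genes at -0.005, 32 members were lower and 5 higher (41.1% and 40.5% of all tested genes), and with upper-quartile scaling 35 and 2 (47.7% and 33.5%). The 12 proliferation markers were lower in null cells here too (median -1.23). This comparison shares its null THZ1 and heterozygous THZ1 libraries with the first and second comparisons.

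**Figure D2:**
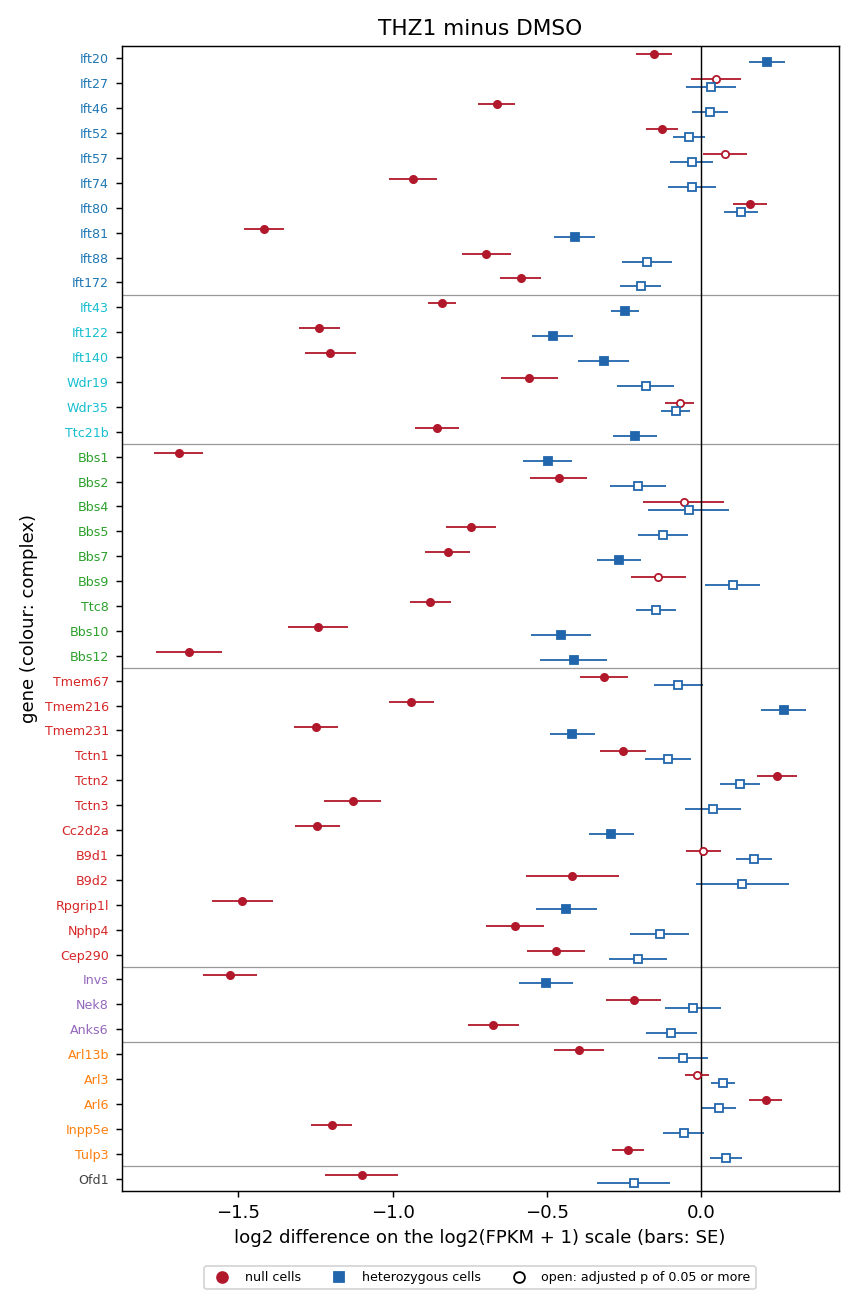
Difference between THZ1 and DMSO for the 46 tested members (rows, coloured by complex) in null cells (red circles) and heterozygous cells (blue squares), in log2 units with SE bars, filled where called. Most red points lie left of the blue ones, down to -1.69 for Bbs1, while Ift27, Ift57, Wdr35, B9d1 and Arl3 lie near 0 in null cells.

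**Figure D3:**
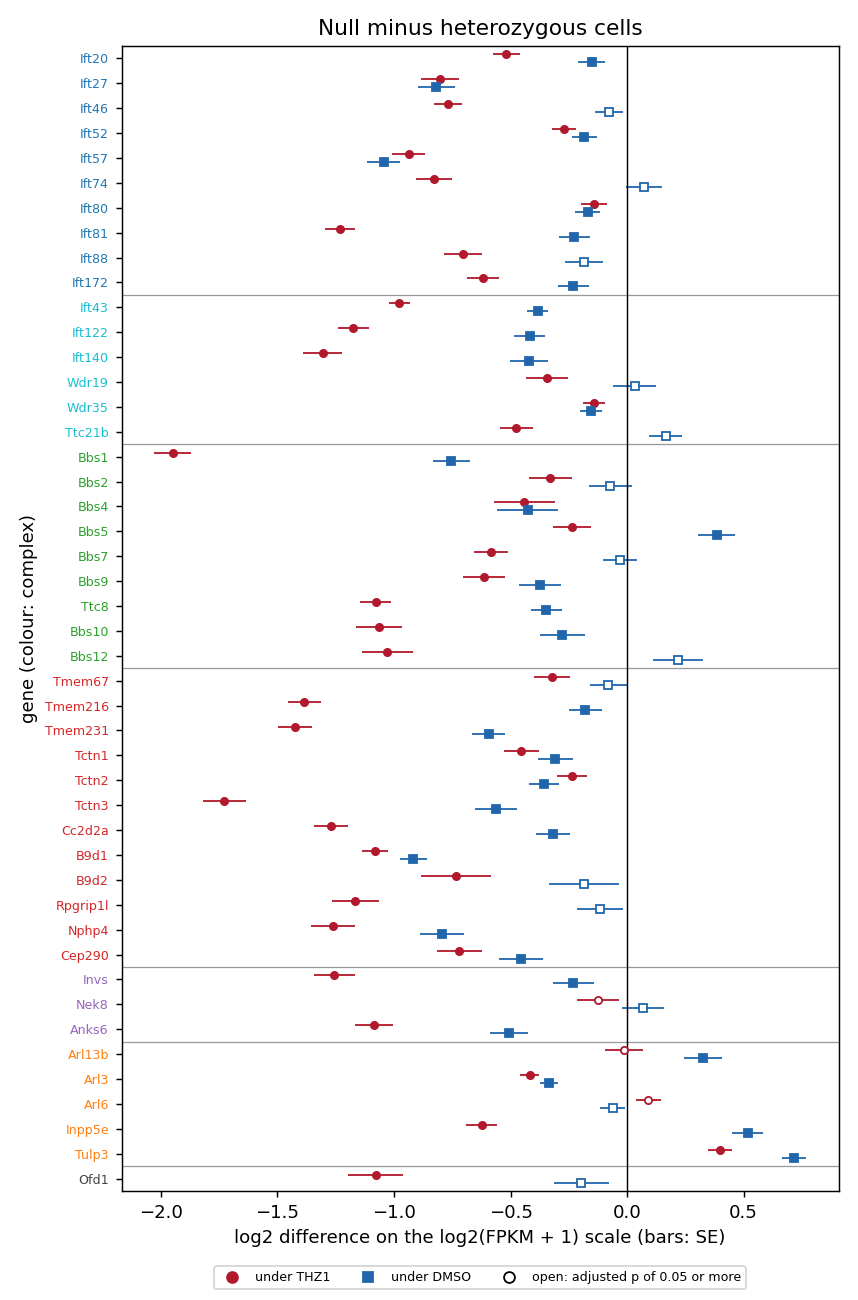
Difference between null and heterozygous cells for the 46 tested members (rows, coloured by complex) under THZ1 (red circles) and under DMSO (blue squares), in log2 units with SE bars, filled where called. Under THZ1 Bbs1 is farthest left at -1.95, and Ift57, Ift27 and B9d1 are -0.80 or lower under both.

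In IFT-B the summed level of the 10 subunits was 114.2 and 114.3 FPKM in null THZ1 libraries, 143.8 and 142.8 in null DMSO libraries, 177.3 and 177.2 in heterozygous THZ1 libraries, and 177.3 and 178.4 in heterozygous DMSO libraries. Under THZ1 7 of the 10 fell and 1 rose in null cells, against 51.1% and 24.6% of all tested genes. In heterozygous cells 1 fell and 1 rose, near the 10.3% and 12.2% of all tested genes. Ift81 and Ift74 form the pair that binds tubulin. Ift81 had 4.14 and 4.43 FPKM in null THZ1 libraries, 13.72 and 12.51 in null DMSO libraries, 11.48 and 11.34 in heterozygous THZ1 libraries, and 15.43 and 15.56 in heterozygous DMSO libraries. None of the 4 groups overlapped, and the null THZ1 libraries were lowest. The THZ1 difference was -1.42 ± 0.07 in null cells (limma adjusted p = 1.84e-09) and -0.41 ± 0.07 in heterozygous cells (limma adjusted p = 0.00172). Under DMSO Ift81 was also lower in null than in heterozygous cells, at -0.23 ± 0.07 (limma adjusted p = 0.00802), a call that was lost without null DMSO library 2 (adjusted p = 0.0947). Ift74 had 7.1 and 7.51 FPKM in null THZ1 libraries, 14.91 and 14.83 in null DMSO libraries, 13.01 and 14.54 in heterozygous THZ1 libraries, and 15.26 and 12.99 in heterozygous DMSO libraries. Its null THZ1 libraries stood apart from the other 6, which overlapped between the lines, and it fell by 0.93 ± 0.08 with THZ1 in null cells (limma adjusted p = 2.51e-07) with -0.03 ± 0.08 in heterozygous cells (limma adjusted p = 0.803).

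Other IFT-B subunits differed between the lines while their THZ1 difference was small. Ift57, a peripheral subunit that tethers Ift20, had 11.11 and 10.8 FPKM in null THZ1 libraries, 11.1 and 9.63 in null DMSO libraries, 23.02 and 20.8 in heterozygous THZ1 libraries, and 22.39 and 22.4 in heterozygous DMSO libraries. Every null library was below every heterozygous library, whichever the treatment. The null against heterozygous difference was -0.94 ± 0.07 under THZ1 (limma adjusted p = 4.45e-08) and -1.04 ± 0.07 under DMSO (limma adjusted p = 3.69e-08), and THZ1 in null cells gave 0.076 ± 0.07 (95% interval -0.08 to 0.23). Ift27, a Rab-like GTPase that links the IFT train to the BBSome, had 11.22 and 10.46 FPKM in null THZ1 libraries, 9.53 and 11.46 in null DMSO libraries, 19.78 and 19.5 in heterozygous THZ1 libraries, and 18.17 and 20.29 in heterozygous DMSO libraries. It too was lower in all null libraries, by -0.80 ± 0.08 under THZ1 (limma adjusted p = 7.43e-07) and -0.82 ± 0.08 under DMSO (limma adjusted p = 1.26e-06), with a THZ1 difference in null cells of 0.05 ± 0.08 (95% interval -0.13 to 0.22). With median-of-ratios scaling the THZ1 differences of both in null cells were called higher, at 0.29 for Ift57 and 0.26 for Ift27.

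Ift20 and Ift80 were called higher with THZ1, each in 1 line. Ift20, which also carries cargo from the Golgi, had 34.89 and 35.03 FPKM in heterozygous THZ1 libraries against 28.34 and 31.8 in heterozygous DMSO libraries, without overlap. The difference there was 0.21 ± 0.06 (limma adjusted p = 0.0214). Without heterozygous DMSO library 1 it was 0.13 and no longer called (adjusted p = 0.171), nor was it called without either heterozygous THZ1 library. In null cells Ift20 had 23.37 and 24.88 FPKM with THZ1 against 27.31 and 26.54 with DMSO, a fall of -0.15 ± 0.06 (limma adjusted p = 0.0291) that median-of-ratios scaling turned to 0.07 and that lost its call without either null DMSO library or null THZ1 library 1. Ift80, a peripheral subunit mutated in a skeletal ciliopathy, had 19.69 and 20.37 FPKM in null THZ1 libraries against 18.06 and 17.69 in null DMSO libraries (0.16 ± 0.06, limma adjusted p = 0.0206). The call was lost without null DMSO library 2 (0.14, adjusted p = 0.0907), without null THZ1 library 2 (0.13, adjusted p = 0.0956) and with library totals (0.07). The remaining IFT-B subunits Ift46, Ift52, Ift88 and Ift172 fell in null cells by values between -0.70 (Ift88) and -0.13 (Ift52), and none of them was called in heterozygous cells. The Ift52 call was lost without either null DMSO library or null THZ1 library 2 (-0.07). Ift88, the subunit lost in a classic mouse model of polycystic kidneys, had 2.66 and 2.88 FPKM in null THZ1 libraries, 5.37 and 4.85 in null DMSO libraries, 4.91 and 5.38 in heterozygous THZ1 libraries, and 5.84 and 6.04 in heterozygous DMSO libraries. The null THZ1 libraries were the lowest, and the null DMSO and heterozygous THZ1 libraries overlapped.

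IFT-A was lower with THZ1 in both lines. Its summed level was 58.94 and 61.64 FPKM in null THZ1 libraries, 94.48 and 97.77 in null DMSO libraries, 97.87 and 98.13 in heterozygous THZ1 libraries, and 116.4 and 116.2 in heterozygous DMSO libraries. Of the 6 subunits 5 fell in null cells (median -0.85) and 4 fell in heterozygous cells (median -0.23), and none rose in either. Over all tested genes 51.1% fell and 24.6% rose in null cells, and 10.3% and 12.2% in heterozygous cells. Ift122, a core subunit, had 4.88 and 4.92 FPKM in null THZ1 libraries, 12.43 and 13.41 in null DMSO libraries, 12.89 and 11.76 in heterozygous THZ1 libraries, and 17.88 and 17.31 in heterozygous DMSO libraries. Within each line the treatments did not overlap. The THZ1 difference was -1.24 ± 0.07 in null cells (limma adjusted p = 5.35e-09) and -0.48 ± 0.07 in heterozygous cells (limma adjusted p = 0.000768). Ift140, another core subunit whose loss causes a human ciliopathy with kidney disease, had 0.93 and 1.05 FPKM in null THZ1 libraries, 3.52 and 3.63 in null DMSO libraries, 3.71 and 4.14 in heterozygous THZ1 libraries, and 5.18 and 5.07 in heterozygous DMSO libraries. No 2 groups overlapped, and THZ1 changed it by -1.20 ± 0.08 in null cells (limma adjusted p = 4.60e-08) and by -0.32 ± 0.08 in heterozygous cells (limma adjusted p = 0.0182). The heterozygous call of Ift140 was lost without heterozygous THZ1 library 1 (-0.25, adjusted p = 0.163) or either heterozygous DMSO library. Between the lines Ift140 was lower in null cells by -1.31 ± 0.08 under THZ1 (limma adjusted p = 8.83e-09) and -0.42 ± 0.08 under DMSO (limma adjusted p = 0.000566), and Ift122 by -1.17 ± 0.07 (limma adjusted p = 2.89e-09) and -0.42 ± 0.07 (limma adjusted p = 9.33e-05).

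The other IFT-A subunits were not uniform. Ift43, a peripheral subunit, had 20.71 and 21.34 FPKM in null THZ1 libraries, 37.64 and 39.26 in null DMSO libraries, 41.65 and 43.02 in heterozygous THZ1 libraries, and 49.89 and 50.99 in heterozygous DMSO libraries. It fell by 0.84 with THZ1 in null cells and by 0.25 in heterozygous cells. Ttc21b, the subunit also called Ift139, fell by 0.86 and 0.22 in the same order, the second value losing its call without any one heterozygous library or either null DMSO library. Wdr19, which belongs to the core with Ift122 and Ift140, fell by 0.56 in null cells, and its value of -0.18 in heterozygous cells was not called. Wdr35, by contrast, had 24.85 and 25.83 FPKM in null THZ1 libraries against 26.35 and 26.95 in null DMSO libraries, and its difference of -0.07 ± 0.05 was not called (95% interval -0.17 to 0.03). With median-of-ratios scaling Wdr35 was called higher at 0.15 and with library totals lower at -0.16.

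The BBSome genes included the deepest falls. Their summed level was 27.35 and 28.68 FPKM in null THZ1 libraries, 57.94 and 54.26 in null DMSO libraries, 52.93 and 55.39 in heterozygous THZ1 libraries, and 66.09 and 63.43 in heterozygous DMSO libraries. Of the 9 genes 7 fell with THZ1 in null cells (median -0.82) and 4 in heterozygous cells (median -0.20), and none rose. The shares of all tested genes that fell were 51.1% and 10.3%, with 24.6% and 12.2% that rose. Bbs1, the subunit most often mutated in Bardet-Biedl syndrome, had 0.92 and 1.18 FPKM in null THZ1 libraries, 5.66 and 5.56 in null DMSO libraries, 6.94 and 6.86 in heterozygous THZ1 libraries, and 10.33 and 9.98 in heterozygous DMSO libraries. The 4 groups were all apart. THZ1 changed Bbs1 by -1.69 ± 0.08 in null cells (limma adjusted p = 1.99e-09) and by -0.50 ± 0.08 in heterozygous cells (limma adjusted p = 0.00172). Null cells were lower than heterozygous cells by -1.95 ± 0.08 under THZ1 (limma adjusted p = 1.66e-10) and by -0.75 ± 0.08 under DMSO (limma adjusted p = 2.52e-06), and the first of these was the widest line difference of any member.

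The chaperonin-like genes Bbs10 and Bbs12 assemble the BBSome core with Mkks. Bbs12 had 0.97 and 1.44 FPKM in null THZ1 libraries, 6.43 and 5.45 in null DMSO libraries, 3.65 and 3.3 in heterozygous THZ1 libraries, and 4.96 and 4.95 in heterozygous DMSO libraries. It was highest in null DMSO cells and lowest in null THZ1 cells, with a THZ1 difference of -1.66 ± 0.11 in null cells (limma adjusted p = 2.71e-08) and -0.41 ± 0.11 in heterozygous cells (limma adjusted p = 0.0175), the second being lost without any one of the 4 heterozygous libraries. Bbs10 had 0.37 and 0.41 FPKM in null THZ1 libraries, 2.49 and 2.09 in null DMSO libraries, 1.79 and 2.03 in heterozygous THZ1 libraries, and 3.15 and 2.82 in heterozygous DMSO libraries. It fell by 1.24 in null cells (SE 0.10, limma adjusted p = 1.46e-07) and by 0.45 in heterozygous cells (SE 0.10, limma adjusted p = 0.0073), the second being lost without heterozygous DMSO library 1 (adjusted p = 0.0616) or heterozygous THZ1 library 1 (adjusted p = 0.0716). About 20 fragments lay behind the Bbs10 value of null THZ1 library 1 and 41 behind that of Bbs12, estimated from the depth and the longest transcript, the lowest of the tested members. Of the other subunits Ttc8, also called Bbs8, had 6.69 and 6.22 FPKM in null THZ1 libraries against 13.39 and 12.03 in null DMSO libraries (-0.88 ± 0.07, limma adjusted p = 9.98e-08), and 14.47 and 14.99 against 16.33 and 16.5 in heterozygous cells, where it was not called. Under THZ1 it was lower in null than in heterozygous cells by -1.08 ± 0.07 (limma adjusted p = 6.45e-09).

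Bbs5, Bbs4 and Bbs9 followed other patterns. Bbs5, a subunit that binds phosphoinositides, had 5.2 and 4.74 FPKM in null THZ1 libraries, 8.61 and 9.42 in null DMSO libraries, 5.71 and 6.37 in heterozygous THZ1 libraries, and 6.97 and 6.38 in heterozygous DMSO libraries. It was thus higher in null than in heterozygous cells under DMSO (0.38 ± 0.08, limma adjusted p = 0.000954) and lower under THZ1 (-0.24 ± 0.08, limma adjusted p = 0.0156), a second value that became 0.03 with median-of-ratios scaling and lost its call without null THZ1 library 2 or heterozygous THZ1 library 2. Bbs4 had 2.45 and 3.32 FPKM in null THZ1 libraries, 3.36 and 2.7 in null DMSO libraries, 3.94 and 4.56 in heterozygous THZ1 libraries, and 5.01 and 3.84 in heterozygous DMSO libraries. The drug groups overlapped in both lines, and THZ1 gave -0.06 ± 0.13 in null cells (95% interval -0.34 to 0.23). Its line difference under DMSO, -0.43 ± 0.13 (limma adjusted p = 0.0111), was -0.27 without heterozygous DMSO library 1 and -0.31 without null DMSO library 2, and neither was called. Bbs9 was not called with THZ1 in either line, with -0.14 ± 0.09 in null and 0.10 ± 0.09 in heterozygous cells. Bbs2 and Bbs7 fell by 0.46 and 0.82 in null cells.

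**Figure D4:**
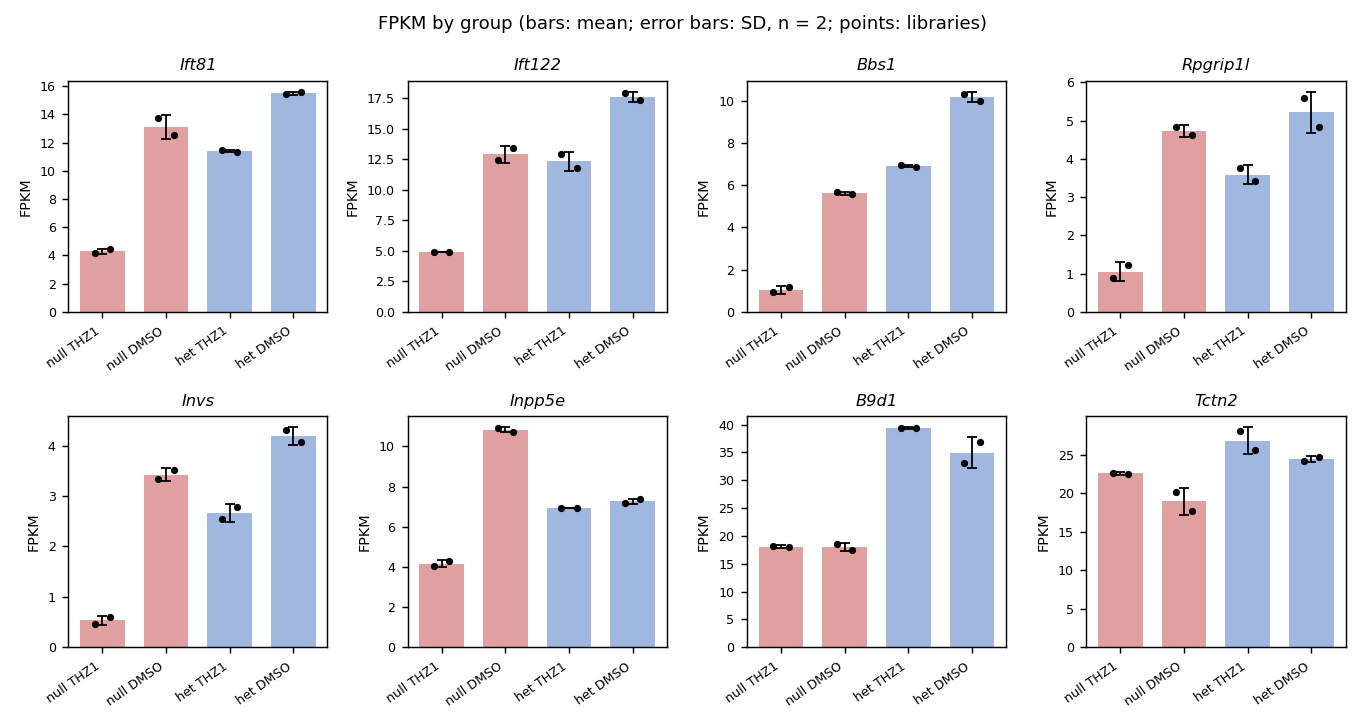
FPKM of 8 members in the 4 groups (bars are means, error bars SDs of n = 2, points the libraries; each axis starts at 0). Ift81, Ift122, Bbs1, Rpgrip1l, Invs and Inpp5e are lowest in null THZ1 cells, B9d1 is lower in both null groups, and Tctn2 is higher with THZ1 than with DMSO in null cells.

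Transition zone genes responded to THZ1 in both directions in each line. The 13 genes summed to 75.63 and 78 FPKM in null THZ1 libraries, 110.6 and 102.5 in null DMSO libraries, 154.2 and 149.8 in heterozygous THZ1 libraries, and 148.2 and 154.8 in heterozygous DMSO libraries. The sum was lower in every null library than in any heterozygous library, and the THZ1 libraries lay below the DMSO libraries in null cells, while they overlapped in heterozygous cells. Of the 12 tested genes 10 fell and 1 rose with THZ1 in null cells, 3 fell and 1 rose in heterozygous cells, and 9 were lower and none higher in null cells under DMSO. Among all tested genes these shares were 51.1% and 24.6%, 10.3% and 12.2%, and 41% and 29% in the same order. Rpgrip1l, a scaffold of the zone, had 0.88 and 1.22 FPKM in null THZ1 libraries, 4.83 and 4.62 in null DMSO libraries, 3.76 and 3.41 in heterozygous THZ1 libraries, and 5.59 and 4.84 in heterozygous DMSO libraries. The treatments were apart in both lines, with differences of -1.49 ± 0.10 in null cells (limma adjusted p = 3.43e-08) and -0.44 ± 0.10 in heterozygous cells (limma adjusted p = 0.00935). The heterozygous call was lost without heterozygous DMSO library 1 (-0.35, adjusted p = 0.0834) or heterozygous THZ1 library 2 (-0.38, adjusted p = 0.0747). Tmem231, a membrane protein of the barrier, had 4.4 and 3.97 FPKM in null THZ1 libraries, 11.84 and 10.8 in null DMSO libraries, 12.48 and 13.36 in heterozygous THZ1 libraries, and 17.08 and 18.1 in heterozygous DMSO libraries. It fell by 1.25 (SE 0.07, limma adjusted p = 1.00e-08) in null cells and by 0.42 (SE 0.07, limma adjusted p = 0.00248) in heterozygous cells. Cc2d2a, a scaffold beneath the membrane, fell by 1.24 and 0.29 in the same order, the second being lost without heterozygous DMSO library 1 or either heterozygous THZ1 library.

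Tmem216 and Tctn3 responded in null cells without a fall in heterozygous cells. Tmem216, mutated in Joubert and Meckel syndromes, had 5.4 and 6.1 FPKM in null THZ1 libraries, 12.67 and 11.22 in null DMSO libraries, 16.51 and 16.68 in heterozygous THZ1 libraries, and 13.59 and 13.67 in heterozygous DMSO libraries. The drug groups were apart in both lines and in opposite order, with -0.94 ± 0.07 in null cells (limma adjusted p = 1.17e-07) and 0.27 ± 0.07 in heterozygous cells (limma adjusted p = 0.021). The heterozygous call was lost without any one of the 4 heterozygous libraries, where the value stayed between 0.26 and 0.27. Tctn3, a tectonic protein of the same module, had 2.87 and 2.76 FPKM in null THZ1 libraries, 7.9 and 6.82 in null DMSO libraries, 12.42 and 10.91 in heterozygous THZ1 libraries, and 10.46 and 12.24 in heterozygous DMSO libraries. Its heterozygous libraries overlapped between treatments (0.04 ± 0.09, limma adjusted p = 0.801), whereas THZ1 lowered it by -1.13 ± 0.09 in null cells (limma adjusted p = 1.99e-07). Under THZ1 the null cells were lower than heterozygous cells by -1.73 ± 0.09 for Tctn3 (limma adjusted p = 1.69e-09) and by -1.43 ± 0.07 for Tmem231 (limma adjusted p = 1.03e-09).

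B9d1 and Nphp4 set the lines apart. B9d1, a B9-domain protein of the barrier, had 18.23 and 17.95 FPKM in null THZ1 libraries, 18.56 and 17.47 in null DMSO libraries, 39.33 and 39.47 in heterozygous THZ1 libraries, and 33.02 and 36.89 in heterozygous DMSO libraries. Every null library was below every heterozygous one. The line difference was -1.08 ± 0.06 under THZ1 (limma adjusted p = 1.71e-09) and -0.92 ± 0.06 under DMSO (limma adjusted p = 1.94e-08), while THZ1 in null cells gave 0.0062 ± 0.0576 (95% interval -0.12 to 0.13), or 0.23 and called higher with median-of-ratios scaling. Nphp4, a nephronophthisis gene, had 1.12 and 1.33 FPKM in null THZ1 libraries, 2.12 and 2.66 in null DMSO libraries, 4.36 and 4.3 in heterozygous THZ1 libraries, and 4.94 and 4.77 in heterozygous DMSO libraries. It was lower in null cells by -1.26 ± 0.09 under THZ1 (limma adjusted p = 4.34e-08) and -0.79 ± 0.09 under DMSO (limma adjusted p = 7.61e-06), and fell with THZ1 by 0.60 in null cells. Tctn2, another tectonic, was the transition zone gene that rose, with 22.7 and 22.47 FPKM in null THZ1 libraries against 20.23 and 17.7 in null DMSO libraries (0.24 ± 0.06, limma adjusted p = 0.0042). Without null DMSO library 2 its difference was 0.15 and not called (adjusted p = 0.0662). The remaining falls in null cells were those of Cep290 (-0.47), Tmem67 (-0.32), Tctn1 (-0.25) and B9d2 (-0.42). The B9d2 value was -0.22 and not called without null DMSO library 1, and -0.23 and not called without null THZ1 library 1, and that of Tctn1 was -0.16 and not called without null DMSO library 2. The value of Tmem67 was -0.15 and not called with median-of-ratios scaling (adjusted p = 0.0933). Exons of Tctn1 overlap those of Hvcn1 on the opposite strand over 27.5% of their length, but Hvcn1 had at most 0.6 FPKM.

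With THZ1 in null cells 51.1% of all tested genes fell. So did all 3 genes of the inversin compartment, the zone just above the transition zone. Invs, which names it, had 0.47 and 0.6 FPKM in null THZ1 libraries, 3.33 and 3.51 in null DMSO libraries, 2.54 and 2.79 in heterozygous THZ1 libraries, and 4.31 and 4.07 in heterozygous DMSO libraries. The 4 groups did not overlap, and the differences with THZ1 were -1.53 ± 0.09 in null cells (limma adjusted p = 1.00e-08) and -0.50 ± 0.09 in heterozygous cells (limma adjusted p = 0.0027). Between the lines Invs was lower in null cells by -1.26 ± 0.09 under THZ1 (limma adjusted p = 2.22e-08) and -0.23 ± 0.09 under DMSO (limma adjusted p = 0.0317), the second being lost without any one of the 4 DMSO libraries. Anks6, an ankyrin protein that activates Nek8, had 2.3 and 2.46 FPKM in null THZ1 libraries, 4.29 and 4.49 in null DMSO libraries, 6.16 and 6.17 in heterozygous THZ1 libraries, and 6.19 and 7.17 in heterozygous DMSO libraries. It fell by 0.67 in null cells (SE 0.08, limma adjusted p = 7.33e-06), was not called in heterozygous cells (-0.10 ± 0.08), and was lower in null cells by -1.08 ± 0.08 under THZ1 (limma adjusted p = 4.62e-08) and -0.51 ± 0.08 under DMSO (limma adjusted p = 0.000107). Nek8, the kinase of the compartment, had 5.9 and 5.42 FPKM in null THZ1 libraries against 6.74 and 6.75 in null DMSO libraries. Its difference of -0.22 (limma adjusted p = 0.04) lost its call without either null DMSO library or null THZ1 library 2, and with median-of-ratios or upper-quartile scaling.

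The ciliary GTPases and cargo factors held 3 of the 4 members that were higher in null cells under DMSO, the other being Bbs5. Over all tested genes 29% were called higher there. Tulp3, an adaptor that brings receptors into the cilium with IFT-A, had 26.61 and 28.04 FPKM in null THZ1 libraries, 33.23 and 31.53 in null DMSO libraries, 20.41 and 20.57 in heterozygous THZ1 libraries, and 18.93 and 19.72 in heterozygous DMSO libraries. All null libraries were above all heterozygous ones, with differences of 0.40 ± 0.05 under THZ1 (limma adjusted p = 9.42e-06) and 0.72 ± 0.05 under DMSO (limma adjusted p = 7.31e-08). THZ1 lowered Tulp3 in null cells by -0.24 ± 0.05 (limma adjusted p = 0.00105), a call lost with median-of-ratios scaling. Inpp5e, a phosphoinositide phosphatase of the ciliary membrane, had 4.03 and 4.29 FPKM in null THZ1 libraries, 10.91 and 10.74 in null DMSO libraries, 6.95 and 6.94 in heterozygous THZ1 libraries, and 7.17 and 7.36 in heterozygous DMSO libraries. It was highest in null DMSO cells and lowest in null THZ1 cells. THZ1 gave -1.20 ± 0.07 in null cells (limma adjusted p = 7.51e-09) and -0.06 ± 0.07 in heterozygous cells (limma adjusted p = 0.571), and the null against heterozygous difference was -0.62 ± 0.07 under THZ1 (limma adjusted p = 1.43e-06) and 0.52 ± 0.07 under DMSO (limma adjusted p = 1.56e-05). The Inpp5e values are uncertain, because 21.1% of its exonic length overlaps Pmpca on the opposite strand and how strand was handled was not given in the sources used here. Pmpca had 34.36 and 35.4 FPKM in null THZ1 libraries, 62.87 and 65.12 in null DMSO libraries, 43.87 and 43.56 in heterozygous THZ1 libraries, and 51.01 and 51.37 in heterozygous DMSO libraries, the same order of groups as for Inpp5e.

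Arl13b, the exchange factor for Arl3, had 4.95 and 5.8 FPKM in null THZ1 libraries, 7.42 and 7.31 in null DMSO libraries, 5.43 and 5.4 in heterozygous THZ1 libraries, and 5.96 and 5.41 in heterozygous DMSO libraries. The null DMSO libraries were highest, and the other groups overlapped. Arl13b fell by 0.40 with THZ1 in null cells (SE 0.08, limma adjusted p = 0.000659) and was 0.32 ± 0.08 higher in null cells under DMSO (limma adjusted p = 0.00311). Arl3 had 66 and 63.87 FPKM in null THZ1 libraries, 66.07 and 65.05 in null DMSO libraries, 87.21 and 86.97 in heterozygous THZ1 libraries, and 83.63 and 82.22 in heterozygous DMSO libraries. It was lower in every null library, by -0.42 ± 0.04 under THZ1 (limma adjusted p = 4.31e-07) and -0.33 ± 0.04 under DMSO (limma adjusted p = 7.12e-06). Its THZ1 difference in null cells was -0.014 ± 0.04 (95% interval -0.10 to 0.07), but 0.21 and called higher with median-of-ratios scaling and -0.10 and called lower with library totals. Arl6, which recruits the BBSome to membranes, had 27.84 and 26.42 FPKM in null THZ1 libraries against 22.87 and 23.8 in null DMSO libraries, without overlap (0.21 ± 0.05, limma adjusted p = 0.0032). With library totals it was 0.13 and not called (adjusted p = 0.0531). Heterozygous cells gave 0.06 ± 0.05 for Arl6 (limma adjusted p = 0.467), and none of the 5 genes was called there. Of all tested genes 10.3% fell and 12.2% rose in those cells.

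Ofd1, a distal centriole protein needed for docking of the basal body, had 1.01 and 1.46 FPKM in null THZ1 libraries, 4.12 and 3.44 in null DMSO libraries, 4.12 and 3.31 in heterozygous THZ1 libraries, and 4.67 and 4.27 in heterozygous DMSO libraries. The null THZ1 libraries were the lowest, and the heterozygous DMSO libraries lay above the other groups. It fell by 1.10 (SE 0.12, limma adjusted p = 2.35e-06) in null cells, with -0.22 ± 0.12 in heterozygous cells (limma adjusted p = 0.199), and under THZ1 it was lower in null than in heterozygous cells by -1.08 ± 0.12 (limma adjusted p = 1.75e-06).

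Whether the lines differed in their response to THZ1 was tested with the interaction term, the null response minus the heterozygous response. It was called lower for 30 of the 46 members and higher for 0, against 45.1% of all tested genes called lower and 15.1% called higher. The median was -0.54, against -0.19 over all tested genes, and 8 members were at -1 or below, against 5.57% of all tested genes. The largest were those of Bbs12 (-1.25 ± 0.15, limma adjusted p = 2.28e-05), Tmem216 (-1.21 ± 0.10, limma adjusted p = 1.44e-06), Bbs1 (-1.19 ± 0.11, limma adjusted p = 3.11e-06), Tctn3 (-1.17 ± 0.13, limma adjusted p = 1.10e-05) and Inpp5e (-1.14 ± 0.09, limma adjusted p = 1.24e-06). By complex the term was called lower for 6 of 10 IFT-B, 5 of 6 IFT-A, 6 of 9 BBSome, 7 of 12 transition zone, 2 of 3 inversin compartment and 3 of 5 GTPase genes, and for Ofd1. In IFT-B it was -1.01 ± 0.09 for Ift81 (limma adjusted p = 2.62e-06) and -0.90 ± 0.11 for Ift74 (limma adjusted p = 2.27e-05), and in IFT-A -0.89 ± 0.12 for Ift140 (limma adjusted p = 4.25e-05) and -0.76 ± 0.09 for Ift122 (limma adjusted p = 2.53e-05). In the inversin compartment it was -1.02 ± 0.12 for Invs (limma adjusted p = 2.14e-05) and -0.58 ± 0.12 for Anks6 (limma adjusted p = 0.000947). The value for Ofd1 was -0.88 ± 0.17 (limma adjusted p = 0.000619), and that for Arl13b, -0.34 ± 0.11 (limma adjusted p = 0.0227), was not called without any one of null DMSO libraries 1 and 2, null THZ1 library 1 (-0.24), heterozygous DMSO library 2 and heterozygous THZ1 libraries 1 and 2. With median-of-ratios scaling, which put the median of all genes at 0.02, 24 members were called lower and 5 higher (29.1% and 32.4% of all tested genes), and with upper-quartile scaling 27 and 2 (36.7% and 23%).

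The responses of the lines to THZ1 share no library and can be set side by side. All 13 members that fell in heterozygous cells also fell in null cells, where they made up 36.1% of the 36 that fell. Over all tested genes 88.1% of the 1100 genes that fell in heterozygous cells also fell in null cells, 17.7% of the 5479 that fell there. The 2 members called higher in heterozygous cells, Ift20 and Tmem216, were called lower in null cells, and the 3 called higher in null cells were not called in heterozygous cells. Across the 46 members Spearman's rho between the responses was 0.75, against 0.58 across the 10731 tested genes, where genes share the libraries and are not independent replicates. The response in null cells had a rho of 0.40 with the level in heterozygous DMSO cells across members (0.23 across all tested genes), so that lower members tended to have the more negative values. The response in heterozygous cells had a rho of 0.44 with the level in null DMSO cells (0.18 across all). With the span of the gene on the chromosome the rho was -0.11 in null cells and -0.31 in heterozygous cells across members, and 0.11 and -0.15 across 10718 genes.

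**Figure D5:**
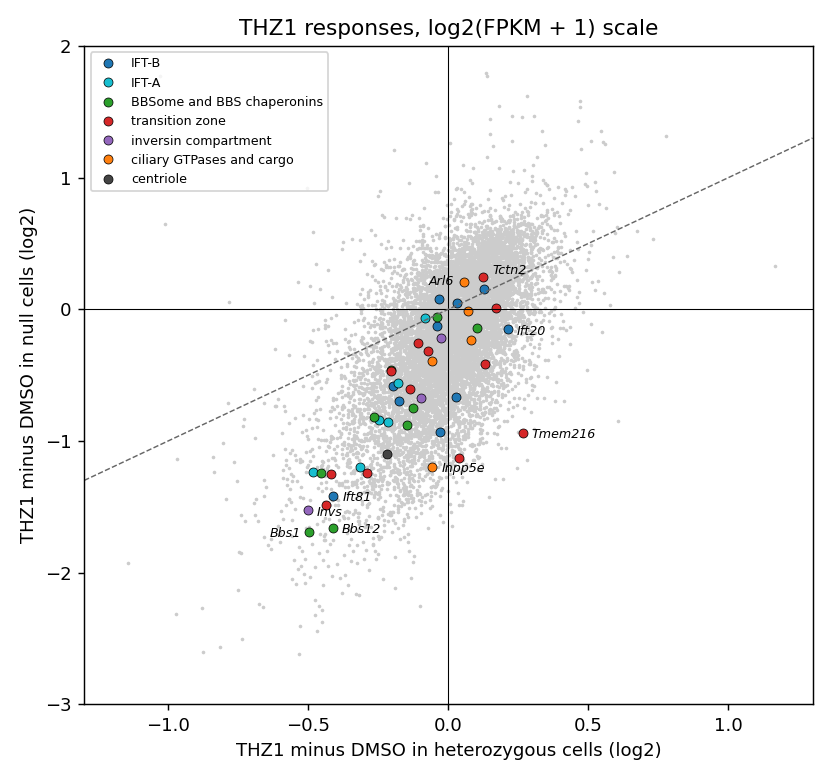
Response to THZ1 in null cells (vertical) against that in heterozygous cells (horizontal) for all tested genes (grey) and the 46 tested members (coloured by complex), in log2 units on axes of unequal scale, with the dashed line marking equal responses; 6 genes lie outside the axes. Most members lie below the line, Tmem216 has responses of opposite sign, and the Bbs1, Bbs12, Invs and Ift81 points are in the lower left.

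The 9 tested members with the X-box pattern in their promoter were set beside the 32 with a promoter sequence but no match. With THZ1 in null cells 6 of the 9 fell and 1 rose (median -0.61), against 26 and 1 of the 32 (median -0.62). Over all tested genes 51.1% fell and 24.6% rose. Between the lines under DMSO 8 of the 9 were lower in null cells and 0 higher (median -0.43), against 16 lower and 4 higher of the 32 (median -0.18). There 41% of all tested genes were called lower and 29% higher. These are counts, with no test of the difference between the 2 kinds of promoter.

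Genes of the same pathways that are not members were read from lists of further cilium genes. With THZ1 in null cells 11 of 14 other IFT-B subunits and motors fell and 1 rose, 14 of 19 other BBSome, transition zone and ciliopathy genes fell, 11 of 17 basal body and distal appendage genes fell, and 5 of 7 RFX and other ciliogenesis transcription factors fell, with none rising in the last 3 lists. Of the cilium disassembly genes 8 of 14 fell and 1 rose, and of the ciliary Hedgehog genes 5 of 9 fell and 1 rose. These counts stand against 51.1% of all tested genes called lower and 24.6% called higher, and the shares that fell among the disassembly and Hedgehog genes were near the first of these. The list medians were -0.39, -0.39, -0.45, -0.43, -0.28 and -0.17 in that order. The largest falls were those of Rfx5 (-2.14 ± 0.07, limma adjusted p = 1.56e-10), an RFX factor known from MHC class II genes, of the IFT-B subunit gene Ttc30b (-1.53 ± 0.09) and of Pde6d, which carries lipid-modified cargo for Arl3 (-1.41 ± 0.09). Smo, the Hedgehog signal transducer that enters the cilium, rose by 0.45 ± 0.04 and Traf3ip1, the IFT-B subunit Ift54, by 0.38 ± 0.07. In heterozygous cells 3 of the 14 genes of the first list and 3 of the 19 of the second fell, led by Ttc30b (-0.60 ± 0.09) and Cep41 (-0.65 ± 0.08). None of these 2 lists rose. Of the basal body genes 2 of 17 fell, of the transcription factors 2 of 7 and of the Hedgehog genes 2 of 9, with 1 rising in each. Of the disassembly genes 0 of 14 fell and 1 rose. Over all tested genes 10.3% fell and 12.2% rose there. Rfx5 fell by 0.75.

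Between the lines under DMSO 14 of the 19 other BBSome, transition zone and ciliopathy genes, 9 of the 14 other IFT-B and motor genes and 12 of the 17 basal body genes were lower in null cells, with 0, 2 and 2 higher in that order, against 41% of all tested genes called lower and 29% called higher. Tmem107, a transition zone membrane protein, had a difference of -1.22 ± 0.07 and the dynein-2 light chain gene Tctex1d2 one of -1.06 ± 0.07, while the centriolar gene Cep120 was higher at 0.73 ± 0.07. Of 14 cilium disassembly genes 7 were lower, led by the mitotic kinase Nek2 (-1.51 ± 0.07), and 5 higher, led by Nedd9 (0.87 ± 0.08), the activator of Aurora A at the basal body, shares near those of all tested genes. Under THZ1 all 19 of the other BBSome, transition zone and ciliopathy genes were lower in null cells, with Pde6d at -2.14 ± 0.09. Lower there were also 12 of the 14 other IFT-B and motor genes and 13 of the 17 basal body genes, with 1 higher in each. Of the 9 Hedgehog genes 7 were lower and 2 higher. Of the 14 disassembly genes 8 were lower and 2 higher. Over all tested genes 58.1% were called lower and 25.1% higher, and the disassembly share called lower was near the first of these. With THZ1 the proliferation markers showed 8 of 12 lower and 2 higher in null cells (median -0.21, against 51.1% and 24.6% of all tested genes) and 2 lower and 2 higher in heterozygous cells (median 0.03, against 10.3% and 12.2%), and their part in the members' responses was not tested.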

How the data were processed

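Poly(A) RNA from cultured cells was sequenced in 8 libraries, 2 for each pairing of line and treatment; the labels gave each library's group and number. The authors deposited 1 FPKM value per gene and library, listed by Entrez gene ID and rounded. The mouse build mm10, Bowtie2 and DESeq2 are named, without versions, per the submitters' processing notes. Which program computed FPKM, on which annotation and with which strand setting, was not given in the sources used here. RefSeq (GRCm38.p6) supplied symbols for 18592 of 18631 IDs, and exon overlaps were read from the GENCODE annotation of the same assembly. The scale of the tests was log2(FPKM + 1), with no rescaling of libraries, and the 10731 genes whose mean FPKM reached 1 were fitted with limma 3.58.1 in R 4.3.3, with 1 mean per group, a prior spread that follows the level and 4 residual degrees of freedom. Two-sided p-values received the Benjamini-Hochberg adjustment across every tested gene, with a threshold of 0.05. FPKM values are no counts, so no count test was used, and depth was estimated from the steps between low values. The fit and the depth estimate were tested on simulated data. Named in full were, in each comparison and complex, up to 2 called members with the largest increase and 2 with the largest decrease, and from each pathway list the same numbers of genes, of which the text gives the largest. The members, the lists and the tests were chosen with earlier results of these data known. Alternatives were 3 other scalings, a pseudocount of 0.1, no filter, no trend of the spread, a replicate block and leaving out each library.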

Additional observations from a re-analysis of the deposited data

Results flagged for a closer look

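The THZ1 response differed between the lines for 30 members by the interaction term of limma, a test of the difference itself. Calls were made at an adjusted p below 0.05 over all tested genes. Of the 10731 tested genes 45.1% were called lower in this term and 15.1% higher, with a median of -0.19. With median-of-ratios scaling 24 members were lower and 5 higher, against 29.1% and 32.4% of all tested genes. The unscaled member values are the null response minus the heterozygous response on the log2(FPKM + 1) scale, and all are negative. In IFT-B they were -1.006 for Ift81, -0.903 for Ift74, -0.691 for Ift46, -0.519 for Ift88, -0.388 for Ift172 and -0.366 for Ift20. In IFT-A they were -0.886 for Ift140, -0.756 for Ift122, -0.642 for Ttc21b, -0.593 for Ift43 and -0.376 for Wdr19. Among the BBSome genes they were -1.245 for Bbs12, -1.194 for Bbs1, -0.787 for Bbs10, -0.731 for Ttc8, -0.621 for Bbs5 and -0.554 for Bbs7. Among the transition zone genes they were -1.205 for Tmem216, -1.166 for Tctn3, -1.049 for Rpgrip1l, -0.952 for Cc2d2a, -0.831 for Tmem231, -0.55 for B9d2 and -0.469 for Nphp4. In the inversin compartment they were -1.024 for Invs and -0.576 for Anks6. Among the GTPase and cargo genes they were -1.14 for Inpp5e, -0.337 for Arl13b and -0.318 for Tulp3, and for Ofd1 the value was -0.882. Of these 30 calls 24 held under every alternative tried, and those of Arl13b, B9d2, Ift172, Ift20, Tulp3 and Wdr19 were lost under at least 1. Tmem216 and Ift20 were called in opposite directions in the lines.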

How the results depend on the processing

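Among member values called in the unscaled fit or under the alternative, 10 turned sign with median-of-ratios scaling: THZ1 in null cells gave 0.068 for Ift20, 0.092 for Ift52, 0.151 for Wdr35 and 0.213 for Arl3, and null against heterozygous cells under THZ1 gave 0.029 for Ift52, 0.157 for Ift80, 0.159 for Wdr35, 0.027 for Bbs5, 0.063 for Tctn2 and 0.253 for Arl13b. With upper-quartile scaling the last comparison gave 0.031 for Ift80 and 0.033 for Wdr35. These scalings shift all genes together, which is how they turn small values, and values called in neither fit turned too (Bbs4 0.115 for THZ1 in null cells, Nek8 0.144 between the lines under THZ1, both with median-of-ratios scaling). For THZ1 in null cells the members' median was -0.465 with median-of-ratios, -0.568 with upper-quartile and -0.702 with library-total scaling. It was -0.786 with a pseudocount of 0.1. Called higher were 8, 3 and 1 members under the 3 scalings, against 40.7%, 30.7% and 19.1% of all tested genes. For null against heterozygous cells under THZ1 the median was -0.474, -0.579 and, with the pseudocount of 0.1, -0.845. Under the first 2 scalings 5 and 2 members were higher, against 40.5% and 33.5% of all tested genes. For the interaction 5 and 2 were higher, against 32.4% and 23% of all tested genes, with a members' median of -0.341 under median-of-ratios. In heterozygous cells 0 members were called higher with library totals, against 7.02% of all tested genes. There 0 were higher and 8 lower without the filter, which tests more genes, and 1 higher without the trend. The shares of all tested genes called without the filter or the trend were not taken. Leaving out 1 library at a time gave 0 to 2 higher and 6 to 13 lower for THZ1 in heterozygous cells, 1 to 3 higher and 32 to 36 lower with a median of -0.679 to -0.61 for THZ1 in null cells, and a median of -0.751 to -0.666 between the lines under THZ1. Calls that held under every alternative were 29 of 39 for THZ1 in null cells, 6 of 15 in heterozygous cells, 22 of 32 between the lines under DMSO and 33 of 43 under THZ1. Where an alternative changed a call for another reason, the cause was not tested. Deviations of same-numbered libraries correlated only weakly, at -0.094 to 0.139, which does not settle whether the replicate numbers pair the samples. With a replicate block the member calls were 36 lower and 3 higher for THZ1 in null cells, and 12 and 2 in heterozygous cells. They were 27 and 4 between the lines under DMSO, 42 and 1 under THZ1, and 30 and 0 for the interaction. The shares of all tested genes called with the block were not taken. Depth limits the lowest members, with about 20 fragments for Bbs10 in null THZ1 library 1.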

Other observations

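Pkd2, the gene of polycystin-2, was measured beside the members. It had 35.43 and 34.52 FPKM in null THZ1 libraries, 51.64 and 53.36 in null DMSO libraries, 32.62 and 32.54 in heterozygous THZ1 libraries, and 43.17 and 39.4 in heterozygous DMSO libraries. It fell with THZ1 in null cells (-0.57 ± 0.05, limma adjusted p = 3.87e-07) and in heterozygous cells (-0.33 ± 0.05, limma adjusted p = 0.00126), and the responses differed (-0.24 ± 0.07, limma adjusted p = 0.0107). Pkd1 was not called with THZ1 in null cells (-0.17 ± 0.10, limma adjusted p = 0.134) or in heterozygous cells (-0.26 ± 0.10, limma adjusted p = 0.0804).

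Foxj1, a transcription factor best known from motile cilia, had 29.6 and 28.26 FPKM in null THZ1 libraries, 40.12 and 42.19 in null DMSO libraries, 47.17 and 49.38 in heterozygous THZ1 libraries, and 53.31 and 55.56 in heterozygous DMSO libraries. No 2 groups overlapped. Rfx5 had an interaction term of -1.38 ± 0.10 (limma adjusted p = 4.92e-07) and Rfx2 one of -0.91 ± 0.14 (limma adjusted p = 0.000166). Rfx3 and Rfx7 were not called with THZ1 in either line. Their values in null cells were 0.01 ± 0.10 for Rfx3 (limma adjusted p = 0.909) and 0.04 ± 0.07 for Rfx7 (limma adjusted p = 0.639).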
